A study of Mus musculus with 2 samples.

Results

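The S100 and annexin genes described here were 9 of the 20282 genes in a single-cell RNA count matrix of mouse thymus. They were S100a4, S100a6, S100a10, S100a11, S100a13, Anxa1, Anxa2, Anxa5 and Anxa6, taken by name, and all 9 were in the matrix. Their levels by cluster and library were known when the list was made, so every value below is a description and none was tested. The WT library pooled thymocytes of 5 Cdc42f/f mice and the KO library those of 5 Cdc42f/f CD4Cre littermates, all 6 weeks old, so that both groups carried the loxP-flanked Cdc42 alleles. Cre was driven by the CD4 promoter, which acts from the double-positive (DP) stage of thymocyte development, and cells from before that stage should have kept Cdc42. With 1 pooled library per condition there was no replicate check of any difference. All intervals are exact 95% intervals and cover counting error only.

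S100 proteins are small EF-hand proteins, most of which bind calcium and then grip a partner protein. Annexins bind acidic phospholipids of membranes in the presence of calcium, and they tie the plasma membrane to the cortical actin layer and to sites of vesicle fusion and repair. The families meet in fixed pairs: S100a10 joins Anxa2 in a heterotetramer at the inner face of the plasma membrane, S100a11 binds Anxa1, and S100a6 can bind Anxa2. In T cells, S100a4, S100a6 and Anxa2 are best known from effector and memory cells, whereas most developing thymocytes hold little of S100a4 or S100a6.

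The libraries held 6115 cells with 29706197 unique molecular identifiers (UMIs) in WT and 7568 cells with 37920214 UMIs in KO. Levels are UMIs of the 3′ ends of transcripts per 1000000 UMIs of the same cells (CPM). Because such UMIs are not scaled by length, levels are compared between cells and not between genes. Cells were grouped by the deposited clusters. The group that stood for DP cells was the 5 clusters with most Rag1, a recombinase gene, with 3636 WT and 4641 KO cells. The 2 clusters with most Cd5 (535 and 843 cells) followed. Single-positive (SP) cells, the next stage, were represented by the cluster with most Itm2a (479 and 316 cells) and the cluster with most Ms4a4b (332 and 396 cells), the latter a gene of late SP cells. Another 4 clusters led by proliferation genes held 686 and 737 cells. Cdc42 UMIs were lower in KO over all cells (398 CPM in WT, 356 in KO) and in the Rag1 clusters (358 and 320.4 CPM), had overlapping intervals in the Itm2a cluster (397 and 383 CPM), and were higher in KO in the Ms4a4b cluster (447 and 581 CPM). Since 3′ ends cannot show the loss of a floxed exon, these levels are not a check of the labels. WT and KO below therefore mean the libraries so labelled. 17 cell barcodes occurred in both libraries, and 4 cells of the Ms4a4b cluster had such a barcode. Leaving out all cells with a shared barcode changed no call of a member.

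All 5 S100 members lay on chromosome 3 of GRCm38 (GENCODE vM21), and Anxa5 lay on the same chromosome, nearer its start. S100a13 (90514435 to 90524581), S100a4 (90603771 to 90606045) and S100a6 (90612882 to 90624181) were neighbours on the plus strand. S100a11 (93520488 to 93526287) and S100a10 (93555080 to 93564643) formed a second group on the plus strand. Anxa5 was at 36448923 to 36475894 on the minus strand. Anxa2 lay on chromosome 9 (69453620 to 69491795, plus), Anxa6 on chromosome 11 (54979108 to 55033445, minus) and Anxa1 on chromosome 19 (20373428 to 20390944, minus). The protein-coding model Gm42674 overlapped S100a4 on the same strand, and a processed pseudogene, S100a11-ps, was annotated on chromosome 12. Neither was in the matrix, so how their reads were counted is not known and the S100a4 and S100a11 levels carry that uncertainty. The antisense model Gm16144 overlapped Anxa2 and the lincRNA 1500015L24Rik overlapped Anxa1 on the opposite strand, and neither was in the matrix.

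The 250 bases before the transcript start (RefSeq, GRCm38.p6, plus strand) are shown for S100a4, S100a6, S100a11 and Anxa2, the members with a promoter entry and at least 20 UMIs whose KO over WT ratio was largest in the Ms4a4b cluster. The regions were chr3:90603520-90603769 for S100a4, chr3:90612644-90612893 for S100a6, chr3:93520246-93520495 for S100a11 and chr9:69453433-69453682 for Anxa2. The starts are those of RefSeq, and the regions of S100a6, S100a11 and Anxa2 end past the GENCODE gene starts given above. Capitals mark 4 motifs searched on both strands: the TATA box TATAAA, the GC box GGGCGG, the AP-1 motif TGANTCA and the RUNX motif TGTGGT, which reads ACCACA where it lies on the minus strand.
S100a4: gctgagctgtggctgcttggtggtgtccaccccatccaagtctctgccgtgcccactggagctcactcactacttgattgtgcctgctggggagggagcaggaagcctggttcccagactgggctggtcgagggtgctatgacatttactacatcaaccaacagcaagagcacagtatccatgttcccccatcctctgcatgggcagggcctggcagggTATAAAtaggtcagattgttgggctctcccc
S100a6: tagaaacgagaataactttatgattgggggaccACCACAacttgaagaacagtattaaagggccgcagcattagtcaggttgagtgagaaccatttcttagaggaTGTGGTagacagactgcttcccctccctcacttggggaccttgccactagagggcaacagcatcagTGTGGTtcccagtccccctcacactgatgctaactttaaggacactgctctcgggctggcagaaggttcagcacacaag
S100a11: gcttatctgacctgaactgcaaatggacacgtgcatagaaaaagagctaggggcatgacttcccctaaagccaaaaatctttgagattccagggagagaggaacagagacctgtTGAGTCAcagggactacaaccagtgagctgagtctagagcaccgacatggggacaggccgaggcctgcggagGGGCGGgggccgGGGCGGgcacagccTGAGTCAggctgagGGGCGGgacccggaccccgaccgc
Anxa2: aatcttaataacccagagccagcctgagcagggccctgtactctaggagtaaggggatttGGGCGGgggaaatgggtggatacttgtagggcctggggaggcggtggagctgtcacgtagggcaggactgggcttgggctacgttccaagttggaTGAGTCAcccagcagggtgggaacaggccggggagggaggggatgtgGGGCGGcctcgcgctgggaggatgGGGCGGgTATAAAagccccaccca
The motifs divided these promoters. S100a4 held a TATA box 31 bases before the start and none of the other motifs. S100a6 held 3 RUNX motifs and nothing else, the only ones among the 7 members with a promoter entry. S100a11 held 3 GC boxes and 2 AP-1 motifs, and Anxa2 held 3 GC boxes, 1 AP-1 motif and a TATA box. Among all 32851 promoters of the table, 12.4% held the TATA motif, 32.7% the GC box, 6.75% the AP-1 motif and 14% the RUNX motif in the same window. Of the 7 member promoters, 3 held the TATA motif (S100a4, Anxa2 and Anxa1), 2 the GC box, 2 the AP-1 motif and 1 the RUNX motif. A match of letters does not show that a factor binds there.

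Along the path from DP to SP cells the members took different courses, which the plot of levels by cluster group shows for each library. S100a4, which binds non-muscle myosin, and S100a6, a partner of annexins, were rare before the SP clusters. In the Rag1 clusters S100a4 had 5 UMIs in each library, or 0.460 CPM in WT and 0.325 CPM in KO, and in the Ms4a4b cluster it was at 42.1 CPM and 168 CPM. S100a6 was at 1.66 CPM and 3.45 CPM in the Rag1 clusters and at 77.7 CPM and 363 CPM in the Ms4a4b cluster. Between them, in the Itm2a cluster, S100a4 was at 4.26 and 2.66 CPM and S100a6 at 51.1 and 11.2 CPM. In both SP clusters most UMIs of these genes were in cells with a UMI of the marker genes given below. Cells without one held 0 S100a4 UMIs in WT and 1 in KO in the Ms4a4b cluster, and 0 in either library in the Itm2a cluster. S100a6 had 2 and 76 UMIs in such cells of the Ms4a4b cluster and 2 and 9 in those of the Itm2a cluster.

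**Figure D1:**
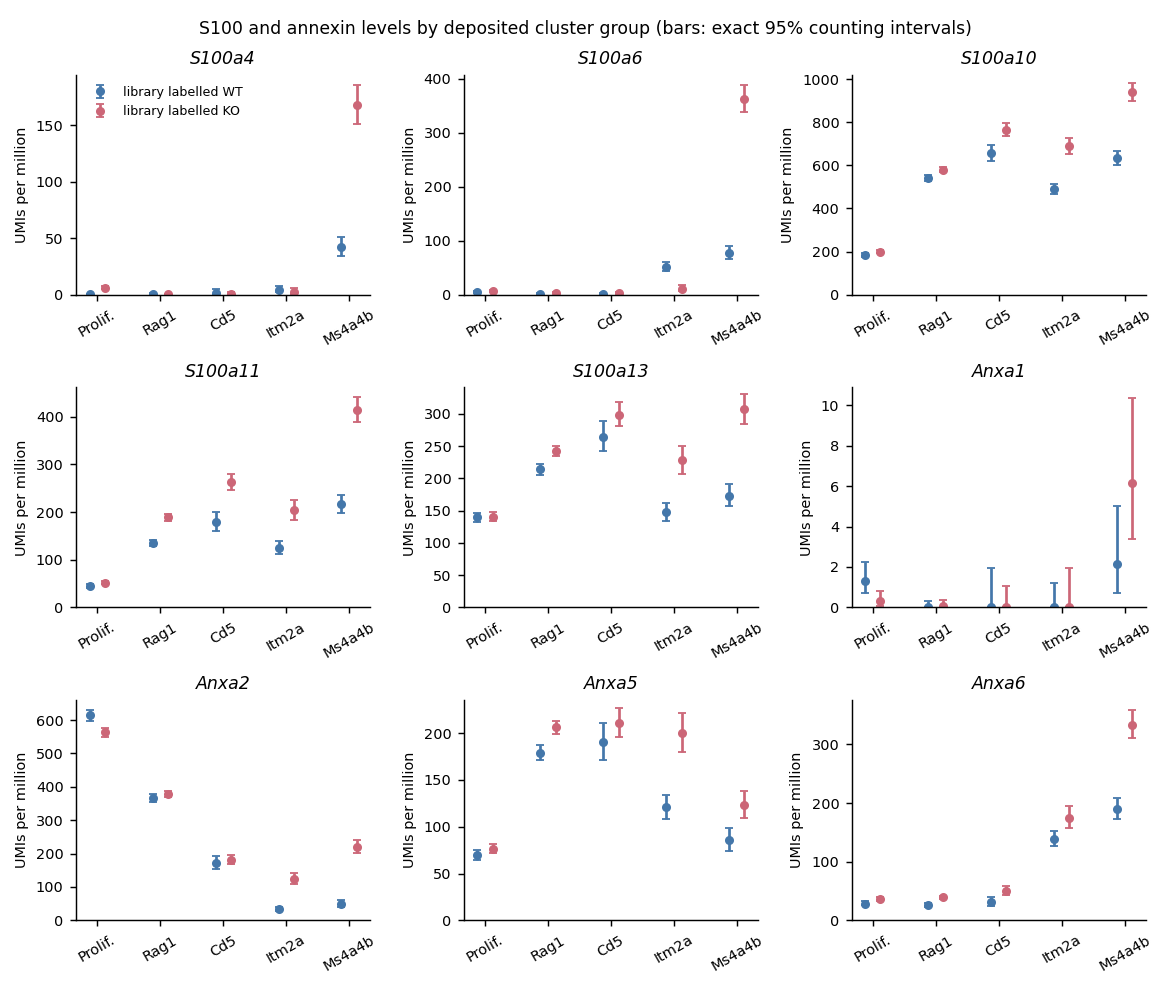
Level of each S100 and annexin gene in CPM (linear axis from 0) in 5 cluster groups, for the WT (blue) and KO (red) libraries, with exact 95% counting intervals. S100a4 and S100a6 were highest in the Ms4a4b cluster of KO (168 and 363 CPM), Anxa6 increased from the Rag1 clusters to the Ms4a4b cluster in both libraries, and Anxa2 was highest in the proliferating clusters (614 and 563 CPM).

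Anxa6, the largest annexin, known for tying cholesterol-rich membrane to the cortex, was at 26.0 CPM in WT and 39.0 CPM in KO in the Rag1 clusters. It reached 139 and 175 CPM in the Itm2a cluster and 191 and 334 CPM in the Ms4a4b cluster. The log2 ratio of the Ms4a4b cluster over the Rag1 clusters was 2.87 in WT and 3.10 in KO, so that the course of Anxa6 along maturation was alike in both libraries. The median over all genes of the same log2 ratio was −0.40 in WT and −0.19 in KO.

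Anxa2 ran the other way. It was at 614 CPM in WT and 563 CPM in KO in the proliferating clusters, with 1233 and 1188 CPM in deposited cluster 13, one of these 4. In the Rag1 clusters it was at 367 and 379 CPM, and in the Cd5 clusters at 172 and 182 CPM, so the libraries were close up to that point. In the SP clusters they parted: WT was at 34.1 CPM in the Itm2a and 49.8 CPM in the Ms4a4b cluster, and KO at 125 and 219 CPM. Genes of maturation also differed between the libraries in these clusters, as given below. The log2 ratio of the Ms4a4b over the Rag1 clusters was −2.87 in WT and −0.79 in KO.

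Anxa5, which binds exposed phosphatidylserine, was highest among these 5 groups in the Cd5 clusters, with 191 CPM in WT and 211 CPM in KO, but the intervals overlapped those of the Rag1 clusters (179 and 206 CPM). In the Ms4a4b cluster it was lower than in the Rag1 clusters in both libraries, by log2 ratios of −1.07 and −0.74. S100a10, the Anxa2 partner that has lost calcium binding, went from 183 CPM in WT and 200 CPM in KO in proliferating cells to 542 and 579 CPM in the Rag1 clusters and 656 and 765 CPM in the Cd5 clusters. The SP clusters had S100a10 at 490 and 689.8 CPM (Itm2a) and at 636 and 941 CPM (Ms4a4b). Proliferating cells were lowest in both libraries. In WT the Cd5 clusters were highest, with an interval (619.9 to 693 CPM) that overlapped that of the Ms4a4b cluster (604 to 669 CPM), and in KO the Ms4a4b cluster was highest, with an interval (901 to 982 CPM) above those of the other 4 groups.

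S100a11, a binding partner of Anxa1, was at 44.8 and 52.0 CPM in proliferating cells, 135 and 189 CPM in the Rag1 clusters and 216 and 414 CPM in the Ms4a4b cluster. Its log2 ratio of the Ms4a4b over the Rag1 clusters in WT, 0.68, was −0.95 without cells that had a UMI of the marker genes given below. S100a13, known for the release of proteins that lack a signal peptide, moved less, between 140 and 264 CPM in WT and between 141 and 307 CPM in KO over the 5 groups. Its log2 ratio of the Ms4a4b over the Rag1 clusters was −0.30 in WT (−0.46 to −0.15) and 0.34 in KO (0.22 to 0.46). Anxa1, a glucocorticoid-induced annexin, had 185 UMIs in all cells of both libraries and 0 UMIs in the Itm2a cluster of either. The limit of 3 counts that was set for a count of 0 came to 0.983 CPM there in WT and 1.59 CPM in KO, and the upper ends of the exact intervals to 1.21 and 1.96 CPM.

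S100a10 and Anxa2 proteins form one complex, and the UMIs of their genes can be set against each other. Per 100 S100a10 UMIs there were 335 Anxa2 UMIs in the proliferating clusters of WT (interval 318 to 353) and 282 in KO (270 to 295). The ratio was 67.7 in WT and 65.4 in KO in the Rag1 clusters and 26.2 and 23.8 in the Cd5 clusters, with intervals that overlapped between the libraries in both groups. In the Itm2a cluster it was 6.96 in WT (5.65 to 8.50) and 18.1 in KO (15.7 to 20.8). In the Ms4a4b cluster it was 7.83 in WT (6.43 to 9.47) and 23.3 in KO (21.1 to 25.7). The Ms4a4b cluster of KO was therefore near the Cd5 clusters in this ratio. The Itm2a cluster of KO lay below them, as the interval of the KO Cd5 clusters was 21.7 to 25.9. Both SP clusters of WT lay lower still.

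**Figure D2:**
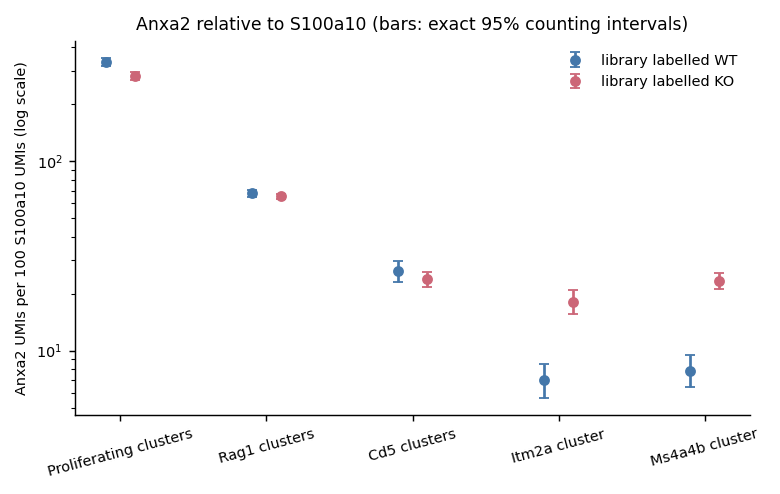
Anxa2 UMIs per 100 S100a10 UMIs (log axis) in 5 cluster groups for the WT (blue) and KO (red) libraries, with exact 95% counting intervals. The libraries lie side by side in the Rag1 and Cd5 clusters and apart in the Itm2a cluster (6.96 in WT, 18.1 in KO) and the Ms4a4b cluster (7.83 and 23.3).

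The comparison of the libraries within a stage was made for genes with at least 20 UMIs over both libraries in that group. A gene was called where the log2 ratio of KO over WT, with 0.5 added to both sums, was at least 0.5 from 0 and its interval did not hold 0. In the Ms4a4b cluster 8 of 9 members had 20 UMIs and all 8 of these were called higher in KO, where 18.3% of 9586 genes were called higher and 4.03% lower. Their median log2 ratio was 0.88, against 0.24 over all genes. Of the members, 7 had 20 UMIs in the Itm2a cluster, of which 4 were called higher (background 8.52% of 9790 genes) and 1 lower (3.19%). The median there was 0.62, against 0.16 over all genes. In the Rag1 clusters 2 of 7 were called higher (background 3.44% of 12983 genes) and in the Cd5 clusters 2 of 6 (3.43% of 9854 genes), and no member was called lower in either (1.22% and 1.44% of genes). Since the choice of members used these values, the counts are listed and nothing is read from them. The typical gene was above 0 in the SP clusters, and with TMM or DESeq2 factors, which centre it, 6 of 8 members were called in the Ms4a4b cluster (background 7.04% and 7.16%) and 3 of 7 in the Itm2a cluster (3.67% with both).

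**Figure D3:**
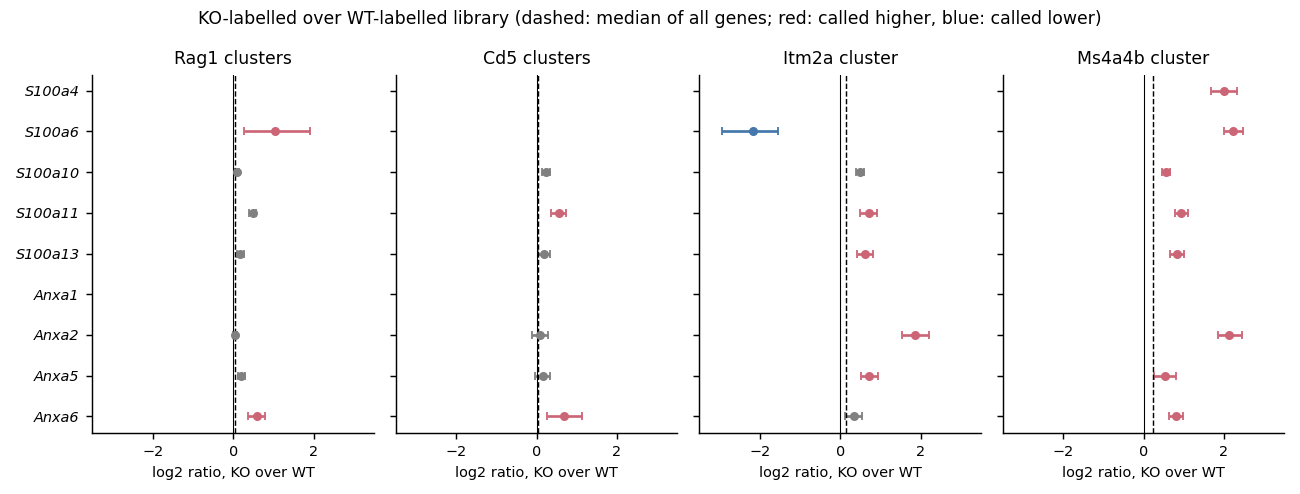
Log2 ratio of the KO over the WT library for each member with at least 20 UMIs in 4 cluster groups, with conditional binomial 95% counting intervals. Red points were called higher and blue points lower in KO, the dashed line is the median of all genes, and the 8 members of the Ms4a4b cluster lie between 0.53 and 2.22.

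The largest ratios in the Ms4a4b cluster were those of S100a6, Anxa2 and S100a4. S100a6 had 181 UMIs in WT (77.7 CPM, interval 66.8 to 89.9) and 823 in KO (363 CPM, 339 to 389), a log2 ratio of 2.22 (1.99 to 2.46). Thinning every cell to 1000 UMIs gave 0.88 (0.31 to 1.49) for S100a6 and 1.16 (0.21 to 2.29) for S100a4, and a mean over cells, in which each cell weighs the same, gave 1.64 and 1.34. Anxa2 had 116 UMIs in WT (49.8 CPM) and 497 in KO (219 CPM), a log2 ratio of 2.13 (1.84 to 2.44). S100a4 had 98 UMIs in WT (42.1 CPM) and 381 in KO (168 CPM), a log2 ratio of 1.99 (1.67 to 2.33). Among the 9586 genes, 34 had a larger ratio than S100a6, 40 than Anxa2 and 51 than S100a4. The other 5 called members lay closer to the remaining genes: S100a11 at 0.94 (0.78 to 1.10), S100a13 at 0.82 (0.65 to 1.01), Anxa6 at 0.81 (0.64 to 0.98), S100a10 at 0.57 (0.47 to 0.66) and Anxa5 at 0.53 (0.26 to 0.80). Of the 9586 genes, 2135 had a larger ratio than S100a10 and 2399 than Anxa5. Over the alternatives described below, the lowest log2 ratios of S100a10 and Anxa5 were 0.32 and −0.064. Anxa1 had 5 UMIs in WT and 14 in KO.

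In the Itm2a cluster Anxa2 again stood out, with 104 UMIs in WT (34.1 CPM) and 235 in KO (125 CPM), a log2 ratio of 1.87 (1.53 to 2.22), and 12 of 9790 genes had a larger one. Anxa5 (0.73), S100a11 (0.71) and S100a13 (0.62) were called higher, and S100a10 (0.49) and Anxa6 (0.34) were not called. S100a6 was the 1 member called lower, with 156 UMIs in WT (51.1 CPM) and 21 in KO (11.2 CPM), a log2 ratio of −2.17 (−2.93 to −1.53). This value rested on few cells. 3 WT cells held 68, 50 and 20 of the 156 UMIs, and 148 of them were in the 9 WT cells with a UMI of Trgc1, Trgc2 or Trgc4, the constant genes of the gamma chain of the T cell receptor. Without cells that had such a UMI, S100a6 had 8 UMIs in WT and 21 in KO, a log2 ratio of 2.02 (0.84 to 3.45). Maturation genes also differed in the Itm2a cluster, where 8.52% of genes were called higher and 3.19% lower. Of 10 early SP genes 5 were called higher, with sums of 4282 CPM in WT and 5796 CPM in KO. Of 13 late SP genes 3 were called higher and 6 lower (6021 and 4702 CPM). Of 8 DP genes 4 were called higher (896 and 1076 CPM). Cells with both Cd4 and Cd8 UMIs were 27.8% of WT and 42.4% of KO. The part of this in the levels of the members was not tested.

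In the Rag1 clusters the members called higher were S100a6, at 18 and 53 UMIs (log2 ratio 1.03, 0.26 to 1.92), and Anxa6, at 26.0 CPM in WT and 39.0 CPM in KO (0.58, 0.38 to 0.79). For S100a6 this was only 1.66 and 3.45 CPM, and over all cells its log2 ratio was 0.92 (19.3 and 36.5 CPM). Whether its few UMIs in the Rag1 clusters were free RNA was not tested. S100a11, at 135 and 189 CPM, had a log2 ratio of 0.49 and lay just below the limit. In the Cd5 clusters S100a11 (0.55) and Anxa6 (0.68) were called higher. Anxa2 was level in both, at 0.05 (−0.01 to 0.10) in the Rag1 clusters and 0.08 (−0.11 to 0.28) in the Cd5 clusters.

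The share of cells with a UMI gave a second view of the same counts. Each cell was thinned to 1000 UMIs, because median depth in the Ms4a4b cluster was 6737.5 UMIs in WT and 5032 in KO. After thinning, Anxa2 was seen in 3.63% of 331 WT cells (interval 1.89 to 6.25) and 14.4% of 396 KO cells (11.1 to 18.2) of the Ms4a4b cluster, and before it in 17.5% and 50.8%. S100a11 was seen in 14.8% of WT cells (11.2 to 19.1) and 29.0% of KO cells (24.6 to 33.8) after thinning, and in 47.6% and 73.7% before. S100a10 was seen in 36.0% (30.8 to 41.4) and 58.6% (53.6 to 63.5) of thinned cells, and in 90.4% and 96.7% of all cells. For these members KO cells were therefore more often positive at equal depth.

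S100a6 was seen in 3.32% of thinned WT cells (1.67 to 5.87) and 8.84% of thinned KO cells (6.23 to 12.1), or 8.43% and 18.2% before thinning. S100a4 was rarer still, in 2.11% (0.854 to 4.31) and 3.28% (1.76 to 5.55) of thinned cells, or 3.92% and 6.57% before, and its intervals overlapped between the libraries. The Rag1 clusters give a level to set beside these shares, and whether their few UMIs were free RNA or came from the cells was not tested. There 0.0556% of thinned WT cells and 0.259% of thinned KO cells had a S100a6 UMI, and 0.0556% and 0.108% a S100a4 UMI, with median depths of 2823 and 3097 UMIs. Anxa5 was seen in 11.8% and 11.4% of thinned cells of the Ms4a4b cluster, with overlapping intervals, and its log2 ratio in thinned cells was −0.064.

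UMIs of S100a4 were held by few cells. In the Ms4a4b cluster 13 WT cells held its 98 UMIs and 26 KO cells its 381, and the 3 cells with most held 71.4% in WT and 45.1% in KO. The corresponding shares were 29.3% and 25.3% for S100a6 and 20.7% and 7.04% for Anxa2. Among thinned KO cells with a S100a6 UMI, 22.9% of 35 also had a S100a4 UMI (10.4 to 40.1), against 1.39% of the other 361 (0.451 to 3.20). In WT these shares were 27.3% of 11 (6.02 to 61.0) and 1.25% of 320 (0.342 to 3.17). S100a6 and S100a4 thus shared cells in both libraries. Anxa2 and S100a10 did not show this: S100a10 was seen in 63.2% of the 57 thinned KO cells with Anxa2 (49.3 to 75.6) and in 57.8% of the 339 without (52.4 to 63.1).

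Cells of the Ms4a4b cluster were sorted by whether they had a UMI of any of 8 marker genes of other T cells, namely Foxp3 (regulatory T cells), Zbtb16, Tbx21 and Nkg7 (innate-like T cells), Trdc and the Trgc genes (gamma-delta T cells). 43.7% of the WT cells and 23.7% of the KO cells of the cluster had such a UMI, against 7.48% and 9.29% in the Rag1 clusters. After thinning the shares were 24.5% (19.9 to 29.5) and 14.6% (11.3 to 18.5) in the Ms4a4b cluster and 2.92% and 3.46% in the Rag1 clusters. A single UMI does not name a cell's type. 32 WT cells and 36 KO cells had a Trgc UMI. S100a4 was almost confined to cells with a UMI of any of the 8 markers, where it was at 83.3 CPM in WT and 527 CPM in KO. Without a marker UMI it had 0 UMIs in 187 WT cells and 1 UMI in 302 KO cells. Cells without a Trgc UMI held 29 of its 98 UMIs in WT and 44 of 381 in KO. In cells with a Trgc UMI it was at 228 CPM in WT (178 to 289) and 999 CPM in KO (895 to 1112).

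S100a6 followed the same cells, with a difference between the libraries in those without markers. With a Trgc UMI it was at 304 CPM in WT (245 to 373) and 1708 CPM in KO (1571 to 1853). Without a marker UMI it had 2 UMIs in WT and 76 in KO, a log2 ratio of 4.51 (2.92 to 7.90).

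**Figure D4:**
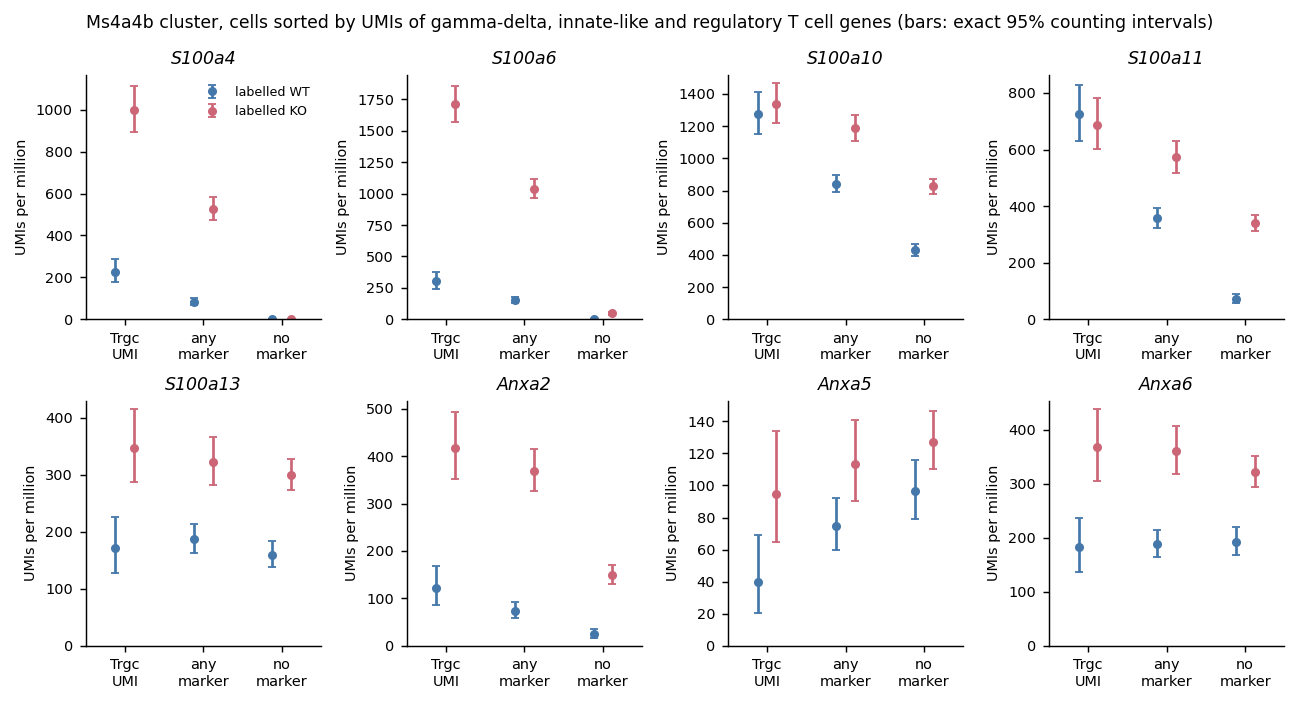
Levels of 8 members in CPM (linear axes from 0) in cells of the Ms4a4b cluster with a Trgc UMI, with any marker UMI, and with no marker UMI, for the WT (blue) and KO (red) libraries, with exact 95% counting intervals. S100a4 and S100a6 are high in cells with a Trgc UMI (999 and 1708 CPM in KO), and Anxa2, S100a10, S100a11, S100a13 and Anxa6 are higher in KO also in cells with no marker UMI.

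For the other members the libraries also differed in cells with no marker UMI. These cells were 56.3% of WT and 76.3% of KO cells of the cluster, with median depths of 6103 and 4679.5 UMIs. A shallow cell can lack a marker UMI by depth alone, so the cells without one need not be alike in the libraries. Anxa2 had 29 UMIs in WT and 231 in KO there, a log2 ratio of 2.55 (2.01 to 3.18). S100a11 had 82 and 525 UMIs, a log2 ratio of 2.25 (1.92 to 2.61), larger than in the whole cluster. S100a10 (0.95, 0.80 to 1.10), S100a13 (0.91, 0.66 to 1.16) and Anxa6 (0.74, 0.51 to 0.97) were called higher as well, and Anxa5 had a log2 ratio of 0.40 (0.06 to 0.75). In cells with a Trgc UMI, by contrast, S100a10 was level at 1276 and 1337 CPM (0.07, −0.13 to 0.27) and S100a11 at 724 and 688 CPM (−0.07, −0.35 to 0.20).

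Cells of the Ms4a4b cluster were also sorted by coreceptor UMIs. Those with neither Cd4 nor Cd8 UMIs held 70 of the 98 S100a4 UMIs in WT and 196 of 381 in KO (log2 ratio 1.40, 1.01 to 1.82), and 90 of the 181 S100a6 UMIs in WT and 507 of 823 in KO (2.41, 2.09 to 2.76). In cells of the Ms4a4b cluster with UMIs of Cd8a or Cd8b1 but not Cd4, S100a4 was at 17.1 CPM in WT and 263 CPM in KO and S100a6 at 41.6 and 346 CPM. For S100a4 these were 14 and 142 UMIs. Of the cluster's S100a4 UMIs, cells with a UMI of the 8 markers held all 98 in WT and 380 of 381 in KO, whatever their coreceptor UMIs. In cells with Cd4 alone, S100a4 was at 28.1 and 36.6 CPM (log2 ratio 0.37, −0.75 to 1.53) and S100a6 at 68.3 and 36.6 CPM (−0.88, −1.86 to −0.0038). Anxa2 was higher in KO in both, at 30.1 and 130 CPM with Cd4 alone (2.08, 1.27 to 3.04) and at 46.5 and 259 CPM with Cd8 alone (2.46, 1.95 to 3.04). S100a10, S100a11, S100a13 and Anxa6 had log2 ratios between 0.61 and 1.43 in these 2 kinds of cells, and the differences between the kinds were not tested.

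Other values moved between the libraries in the same cluster, where 18.3% of all genes were called higher and 4.03% lower. Of 9 gamma-delta T cell genes in the matrix, 8 had 20 UMIs and 5 were called higher and 1 lower in KO, with Trgc1 at 24.5 and 63.1 CPM and Trdc at 92.8 and 206 CPM, and the sum over the list was 285 CPM in WT and 463 CPM in KO. Of 7 regulatory T cell genes 6 were called lower, with a sum of 560 and 267 CPM, and Foxp3 itself had 58 UMIs in WT and 0 in KO. Of 8 DP genes 6 of 7 with 20 UMIs were called higher, with a sum of 925 and 1346 CPM. Rag1 was at 88.9 CPM in WT and 184 CPM in KO there, against 2925 and 2755 CPM in the Rag1 clusters. Of 13 late SP genes 4 were called higher and 1 lower, with a sum of 11514 and 11389 CPM. Their log2 ratios ran from −1.05 to 1.30, with a median of 0.24, the same as that over all genes. Among those called higher was S1pr1, the receptor for thymic exit, at 261 and 643 CPM. Of 15 genes of innate-like T cells 6 were called higher and 2 lower, with Nkg7 at 346 and 236 CPM and Xcl1 at 27.1 and 78.1 CPM. The sum of 10 macrophage genes was 8.16 and 40.1 CPM. The part of these lists in the levels of the members was not tested, and more of a gene's RNA per cell cannot be told apart from more cells that express it. Without cells that had a Trgc UMI, the log2 ratio of S100a4 was 0.66 (−0.04 to 1.40) and was not called, that of S100a6 was 1.54 (1.19 to 1.91) and that of Anxa2 was 2.24 (1.89 to 2.61). Taking only the 216 WT cells and 354 KO cells with a S1pr1 UMI gave log2 ratios of 2.54 for Anxa2, 2.22 for S100a6, 1.37 for S100a11 and 0.97 for S100a4.

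Outside the thymocyte path the members marked small groups. The Cd74 cluster (63 and 87 cells), led by genes of antigen-presenting cells, had 696 CPM of S100a4 in WT and 284 CPM in KO, 700 and 320 CPM of S100a6, and 850 and 429.8 CPM of S100a11. There 1 WT cell held 67 of the 153 S100a4 UMIs and 1 KO cell 79 of 140. Anxa5 was highest in the Apoe cluster (30 and 49 cells), which carried macrophage genes, with 710 CPM in WT (479 to 1013) and 407 CPM in KO (272 to 584). In the same KO cluster S100a6 was at 1136 CPM, but all 81 of its UMIs came from 1 cell that also held 866 UMIs of S100a8 and 1032 of S100a9, calcium-binding genes of neutrophils. Anxa1 was of the same kind: 117 of its 185 UMIs came from 1 KO cell placed in the Lars2 cluster, which held 3493 S100a8, 4137 S100a9 and 1274 Ngp UMIs. Deposited cluster 18 (24 and 8 cells) had S100a6 at 34.1 CPM in WT and 928 CPM in KO, where 131 UMIs lay in 5 cells, 89 of them in 1.

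In the proliferating clusters S100a4 had 3 UMIs in WT and 74 in KO, of which 66 were in 3 cells of deposited cluster 11. The remaining members with 20 UMIs there had log2 ratios of KO over WT between −0.12 (Anxa2) and 0.56 (S100a6).

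Genes whose profile over the 19 clusters of both libraries (38 points) was most like that of a member were listed as a description, among 8822 genes with at least 500 UMIs. The points share libraries and cells of small clusters weigh as much as those of large ones. For S100a4 they were Ly6a (Pearson r = 0.89), Ccl5 (0.89) and Ly6c2 (0.83), and for S100a6 Ahnak (0.87), Cd9 (0.87) and Samhd1 (0.85). Ahnak codes for a giant scaffold protein that the S100a10 and Anxa2 complex binds. For S100a10 they were Arhgdib (0.87), Gimap1 (0.86) and Gimap9 (0.85), for S100a11 Tnrc18 (0.84), Ebpl (0.80) and Rnf11 (0.80), and for S100a13 Lyrm2 (0.93), Derl1 (0.89) and Smim15 (0.87). For Anxa2 they were Vdac1 (0.85), Dynlt1f (0.83) and Ppp1r14b (0.80), for Anxa5 Scarb2 (0.88), Vapb (0.82) and Svbp (0.82), and for Anxa6 Ubash3b (0.89), Vasp (0.86) and Irf9 (0.86). For Anxa1 they were S100a9 (0.94), S100a8 (0.94) and Ifitm3 (0.81). The Anxa1 profile rested on few cells. In KO 1 cell held 117 of the 118 Anxa1 UMIs of the Lars2 cluster and 7630 of its 7632 S100a8 and S100a9 UMIs. In the Apoe cluster of KO 1 cell held 7 of 7 and 1898 of 1898. Between members the highest r was 0.74, for S100a4 and S100a6, and the lowest −0.41, for Anxa2 and Anxa6.

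The other genes of the pathway were taken from lists. Of all genes compared, 18.3% were called higher and 4.03% lower in the Ms4a4b cluster, and 8.52% and 3.19% in the Itm2a cluster. Of 11 other S100 genes 7 were in the matrix, and none had 20 UMIs in the Itm2a or the Ms4a4b cluster. Of 8 other annexins 5 were in the matrix. In the Ms4a4b cluster 2 of the 3 with 20 UMIs were called higher, Anxa7 at 29.2 and 62.6 CPM (log2 ratio 1.10) and Anxa11, a partner of S100a6, at 38.6 and 61.3 CPM (0.66). Of 2 in the Itm2a cluster 1 was, Anxa7 at 23.9 and 42.5 CPM (0.83). Of 19 partners of S100 proteins and annexins 11 had 20 UMIs in the Ms4a4b cluster and 4 were called higher, with none lower. Ahnak was at 58.8 CPM in WT and 171 CPM in KO (1.54, 1.26 to 1.83), and the calpain subunit Capns1 at 98.3 and 183 CPM (0.89). Myh9, the heavy chain of non-muscle myosin to which S100a4 binds, was singled out for that role after its value was seen. It had a log2 ratio of 0.35 and was not called. The median of the partners was 0.35, against 0.24 over all genes.

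Of 16 other genes of EF-hand proteins 2 were called higher and 1 lower in the Ms4a4b cluster (background 18.3% and 4.03%). Their median log2 ratio was 0.24, the same as that over all genes. The actin bundler Lcp1 was at 329.8 and 492 CPM (0.58), and Calr, a chaperone of the endoplasmic reticulum, at 315 and 202 CPM (−0.64). Of 12 genes that often accompany S100a4, S100a6 and Anxa2 in effector cells 5 were called higher and none lower, with a median of 0.40. Crip1 was at 677 and 2174 CPM (1.68, 1.60 to 1.77), Lgals1, which codes for a galectin, at 458 and 1432 CPM (1.64, 1.54 to 1.74) and Emp3 at 477 and 976 CPM (1.03). In the Itm2a cluster 5 of the 12 were called higher and 1 lower (background 8.52% and 3.19%). Among them was Vim, the intermediate filament gene vimentin, at 507 and 827 CPM (0.71).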

How the data were processed

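Thymocytes of 5 pooled mice per genotype gave 1 library each. The deposited matrix held whole UMI counts per gene and cell, made by the authors with Cell Ranger 3.0.2 and STAR on mm10 (GRCm38), and clustered in Seurat, per the submitters' processing notes; the gene annotation was not given in the sources used here. The deposited mitochondrial percent was 0 in every cell and was not used. No cell lay outside the study's limits of 200 and 6000 genes. The deposited clusters at resolution 1.5 were used unchanged.

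UMI counts were summed per cluster group and library in Python 3.11.15 (numpy 2.4.6, pandas 2.3.3, scipy 1.17.1), with exact Poisson, Clopper-Pearson and conditional binomial intervals, checked on simulated data. With 1 library per condition no test was made. Alternatives used TMM factors (edgeR 4.0.16), DESeq2 1.42.0 size factors, thinning to 1000 UMIs, other minimums, other resolutions and left-out cells. Scrublet (scanpy 1.11.5) marked 2 WT and 0 KO cells by its automatic threshold, so it had not worked, and the 6% of cells with the highest scores were left out as an alternative. Members and lists were chosen with earlier results of these data known. Beside the members, at most 4 genes per list were named, those with the largest size of log2 ratio among genes with 100 UMIs, with the 3 nearest profiles per member and genes that identify cells or clusters. Profiles were log2(CPM + 10). Promoters came from RefSeq, and of the 9 members 7 matched; GENCODE vM21 held 19797 of the 20282 gene names. The values of 1 gene of the lists are not reported here.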

Additional observations from a re-analysis of the deposited data

Results flagged for a closer look

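S100a6 went opposite ways in the SP clusters, lower in KO in the Itm2a cluster (log2 ratio −2.17) and higher in the Ms4a4b cluster (2.22). The difference was not tested, since each condition had 1 library. In the Itm2a cluster 3 WT cells held 138 of the 156 WT UMIs, or 88.5%, and without cells that had a Trgc UMI the log2 ratio was 2.02 there and 1.54 in the Ms4a4b cluster.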

How the results depend on the processing

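No paired analysis was possible because each condition had 1 library. Under all alternatives between 6 and 8 of 7 to 9 members compared were called higher in KO in the Ms4a4b cluster (background 7.04% to 20.2% of genes). In the Itm2a cluster between 3 and 6 of 6 to 8 were called higher (3.67% to 8.91%). In the Rag1 clusters it was 2 of 6 to 9 (2.72% to 3.97%). The median log2 ratio of the members in the Ms4a4b cluster, 0.88, was 0.71 with totals that left out ribosomal protein and mitochondrial genes, 0.63 with TMM and 0.64 with DESeq2 factors, where the median of all genes was 0.065, −0.008 and −0.002. The 1 member called lower in the Itm2a cluster, S100a6, became 0 members after thinning, without the 5% of cells with most UMIs, without marker cells, at resolutions 1.8 and 2 and, chosen after seeing the data, without cells with a Trgc UMI. At resolutions 1.8 and 2 the cluster with most Itm2a was a smaller set, of 173 WT and 186 KO cells against 479 and 316 at resolution 1.5. Under thinning, without marker cells and at both resolutions S100a6 had under 20 UMIs there, so it was not among the genes compared. The log2 ratio of S100a6 was −1.32 after thinning and −0.74 at both resolutions. It was 0.64 without the 5% of cells with most UMIs, 2.48 without marker cells and 2.02 without cells with a Trgc UMI. That of Anxa5 in the Ms4a4b cluster was −0.064 after thinning. The median of the Ms4a4b over the Rag1 clusters in WT, 0.46, was 0.74 with totals without ribosomal protein and mitochondrial genes, 0.22 as a mean over cells, −0.090 after thinning, 0.34 without the 5% of cells with most UMIs and −0.65 without marker cells, where that of S100a11 was −0.95. In KO this median, 0.92, was 1.04 with totals without ribosomal protein and mitochondrial genes, 1.00 without the 6% of cells with the highest Scrublet scores and 0.51 without marker cells. The cause was not tested. Leaving out shared barcodes or taking cells with a S1pr1 UMI, both chosen after seeing the data, moved none of these counts by over 1.5 times. Depth limits S100a4 and Anxa1 most.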
